A study of Homo sapiens with 7 samples.

Results

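The comparison was that of NCI-H520 cells transfected with an anti-CNOT6 shRNA plasmid against the same cells transfected with either of 2 control plasmids, the empty vector or a non-target shRNA with no homology to known genes. NCI-H520 is a lung cancer cell line of squamous origin. Expression was measured on single-colour Agilent microarrays, and the members were array probes. Of 42405 gene probes, 34225 were well above background on all 3 arrays, and the 17112 of them with a mean signal above the median of that set were taken as members. The probe just inside that limit had a mean level of -2.59 and the probe just outside it also -2.59. A gene name could be given to 13499 member probes, which covered 10908 genes.

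All 3 groups received 6 µg of pLKO.1 plasmid by cationic liposomes, puromycin at 6 µg/mL from 12 h, and were harvested at 72 h. The series has 7 arrays, with 1 array per group, on 1 slide. The other 4 carried shRNAs against PARN, CNOT6L, CNOT7 and NOC (nocturnin), and the labels give the CNOT6L and NOC plasmids the same target accession. The arrays of the empty vector, the non-target shRNA, PARN shRNA and CNOT6 shRNA lay in slide row 1, and those of CNOT6L, CNOT7 and NOC shRNA in row 2. Against the row 2 arrays, and in ranks over all 7, the shRNA and the slide row cannot be told apart. Untransfected cells were not analysed here. Transfection was transient, the labels name the CNOT6 plasmid by target gene without its sequence, and protein was not measured. With 1 array per group no difference below has a replicate check, and a call rests on the size of the difference alone.

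A level is the log2 processed signal of a probe minus the 75th percentile of its array, so that 0 lies at that percentile, and a difference is the level on the CNOT6 shRNA array minus that on a control array. Pairs of control levels and of differences are given for the empty vector first and the non-target shRNA second. The 75th percentile of signal was 1366 on the CNOT6 shRNA array, the lowest of the 7, against 3251 on the empty-vector and 2315 on the non-target array. Above background were 84.7%, 91.4% and 82.0% of gene probes in the same order, and no gene spot was saturated. The spot-to-spot SD of probes printed in duplicate had a median of 0.07 on each of the 3 arrays. The line's epithelial genes were clearly measured on the CNOT6 shRNA array, with SOX2 at 5.45, KRT18 at 6.06, KRT19 at 6.88 and EPCAM at 5.21. Of the list of 40 squamous lineage and keratin genes, to which SOX2, KRT18 and KRT19 belong, 35 had a probe above background and 23 a member probe. PITX1, DSP and PKP3 were bright, at 3.76, 3.52 and 3.20. In contrast, TP63, KRT5, KRT14, DSG3 and CLCA2 were not above background on all 3 arrays. TP63, KRT5 and KRT14, markers of squamous basal cells, were at -9.03, -7.77 and -9.33 with CNOT6 shRNA. Of other cell types, 1 of 12 fibroblast markers, 0 of 12 endothelial markers, 4 of 14 immune markers and 6 of 13 neuroendocrine markers were members. Above background on all 3 arrays were 7, 7, 13 and 12 of them in the same order. Being above background was thus not particular to the squamous list. The share of summed signal taken by all immune markers was 0.0197% with CNOT6 shRNA, 0.0231% with the empty vector and 0.0119% with the non-target shRNA. All samples were of the NCI-H520 line, so these shares describe signal and were not read as numbers of immune cells.

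CNOT6 is one of the catalytic subunits of CCR4-NOT, the main cytoplasmic complex that removes the poly(A) tail from mRNA. It belongs to the EEP (endonuclease, exonuclease, phosphatase) family of nucleases, as do CNOT6L, nocturnin, the ANGEL proteins and PDE12, whereas CNOT7, CNOT8, PARN and PAN2 are DEDD-type nucleases. The complex is brought to its mRNAs by adaptors such as the TOB and BTG proteins, by TNRC6 proteins of the microRNA machinery and by proteins that bind AU-rich elements, and many mRNAs of cytokines and early response genes carry such elements.

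The targeted mRNA was examined first. CNOT6 mRNA was lower on the CNOT6 shRNA array than on both controls, but only slightly. Its level was 0.21 with CNOT6 shRNA, 0.42 with the empty vector and 0.32 with the non-target shRNA. The differences were -0.21 and -0.11, and the signal was 89.6% of the mean of both controls on the log2 scale. The 2 spots of the probe were at 0.16 and 0.27 on the CNOT6 shRNA array, at 0.36 and 0.48 on the empty-vector array and at 0.28 and 0.36 on the non-target array. The spots did not overlap, but the higher one with CNOT6 shRNA was next to the lower one with the non-target shRNA. The control arrays themselves differed by 0.10. On the other arrays the level was 0.43 with PARN shRNA, 0.62 with CNOT6L shRNA, 0.74 with CNOT7 shRNA and 0.72 with NOC shRNA, and the CNOT6 shRNA array was thus the lowest of 7. Without replicate arrays the smaller of the differences could not be told apart from that between the controls.

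Transcripts that differed from both controls by at least 2-fold in the same direction were few, with 31 member probes higher, 0.181% of all members, and 11 lower, 0.0643%. At 1.5-fold the numbers were 401 higher, 2.34%, and 102 lower, 0.596%. By any amount, 37.4% of members were above both controls and 28.9% below both. Over the 10908 named genes, each by its brightest member probe, 0.101% were 2-fold higher and 0.0275% lower, and by any amount 32.8% were above both and 33.9% below both. The SD of the differences was 0.34 against the empty vector and 0.42 against the non-target shRNA, and that between the control arrays was 0.42. Hence the CNOT6 shRNA array stood no further from either control, over all members, than the controls stood from each other. Within 0.5 of both controls were 75.4% of members, and 3.54% differed 2-fold between the controls.

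The call depended on both controls being used. With the non-target array as the sole control 438 members would be higher and 67 lower, and with the empty vector as the sole control 162 and 58. Of the 42 called probes 73.8% were higher, whereas without scaling, with the CNOT6 shRNA array dimmer by a median of 0.76 than the non-target array, 2 were higher and 3312 lower and the share was 0.0604%. With the control arrays treated as 1 arm in limma, no member was called at a Benjamini-Hochberg adjusted p of 0.05. That fit takes the single CNOT6 shRNA array to vary as the controls do, so its p-values are not given.

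Chemokines were among the named genes called higher. By the smaller of the differences they came first among those genes of which every spot passed. CXCL1 and CXCL2, which attract neutrophils through the receptor CXCR2, and CCL2, which attracts monocytes, all passed 2-fold against both controls. CCL2 was printed on 10 spots and its level was 0.61 with CNOT6 shRNA, -0.68 with the empty vector and -0.71 with the non-target shRNA. The 9 spots used on the CNOT6 shRNA array ranged from 0.50 to 0.72, so that all of them lay above both controls. The fold over the mean of both controls was 2.47. CXCL1 was at -1.40 with CNOT6 shRNA, against -2.89 and -3.03, a fold of 2.94. CXCL2 was measured by a probe with 2 spots, with differences of 1.80 and 1.70, and by one with 1 spot, with differences of 1.40 and 1.59. The controls of CXCL1 and of both CXCL2 probes lay under the limit of -2.59, so that these probes were members only through their signal with CNOT6 shRNA. Of the 31 probes called higher 6 in all, these 3 among them, had both controls under it. These genes are close paralogues, and their probes may detect each other's transcripts.

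On the arrays of the other shRNAs these chemokines were not as high as with CNOT6 shRNA. Of those arrays only that of PARN shRNA shared slide row 1. CCL2 was at -1.52 with PARN shRNA, -0.52 with CNOT6L shRNA, -0.85 with CNOT7 shRNA and 0.06 with NOC shRNA. CXCL1 was at -2.90, -3.97, -3.02 and -2.29 in the same order. NOC shRNA came next to CNOT6 shRNA for both, and the lowest value was with PARN shRNA for CCL2 and with CNOT6L shRNA for CXCL1.

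Over the whole list of cytokines and chemokines, 7 of 23 genes had a member probe. CCL2, CXCL1 and CXCL2 were called higher and 0 lower, where 0.101% and 0.0275% of all named genes were called. Since CXCL1 and CXCL2 entered through the difference itself, this count is not a result about the list. Of the 4 not called, TNF was 0.21 above the empty vector and 1.79 above the non-target shRNA, with levels of 1.51, 1.30 and -0.29, and the control arrays thus differed by more than the call requires. CSF1, the macrophage growth factor, was above both by 0.30 and 0.70. CXCL5 was below both, by -0.33 and -0.19, and so was IL11, by -0.16 and -0.13.

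A further 10 genes of the list had only dimmer probes above background. CXCL3, another chemokine of the CXCR2 group, was at -1.70 with CNOT6 shRNA, -3.14 with the empty vector and -3.20 with the non-target shRNA. A dimmer CXCL1 probe had differences of 1.29 and 1.43. The rest did not pass the call. CXCL10, an interferon-induced chemokine, had differences of 0.90 and 0.87 on one probe and 0.94 and 1.36 on another. IL6 was above both by 0.26 and 1.42, and IL1B by 0.39 and 0.98. CCL20 was at -2.54 against -2.97 and -4.54. CCL5 was below both, by -1.09 and -0.20. LIF lay between the controls on both of its probes, with differences of -0.29 and 1.02 and of -0.19 and 0.70. CXCL11 did as well, with -0.24 and 0.84. CSF3 and IL32 each had a probe between the controls, with -0.12 and 1.64 and with -0.04 and 0.96, and another above both. The CXCL8 probe was not above background. In all, 16 of 24 probes of the list that were above background lay above both controls, 6 passed 2-fold higher and 0 lower. Of all 34225 probes above background 42.0% lay above both controls, 0.304% passed 2-fold higher and 0.120% lower.

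The promoters of the 3 neutrophil chemokines are shown because their transcripts were higher together. They lie on chromosome 4 in GRCh38.p14, that of CXCL1 at chr4:73869143-73869392 on the plus strand, that of CXCL2 at chr4:74099196-74099445 on the minus strand and that of CXCL3 at chr4:74038690-74038939 on the minus strand. Each is printed from RefSeq as the 250 bases before the start of the gene, 5′ to 3′, with capitals at the NF-kappa-B motif GGAATTTCC.
CXCL1: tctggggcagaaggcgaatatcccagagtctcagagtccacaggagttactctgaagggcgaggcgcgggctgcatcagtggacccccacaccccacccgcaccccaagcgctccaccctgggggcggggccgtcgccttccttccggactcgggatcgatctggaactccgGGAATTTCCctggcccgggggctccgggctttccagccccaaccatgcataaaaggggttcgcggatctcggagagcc
CXCL2: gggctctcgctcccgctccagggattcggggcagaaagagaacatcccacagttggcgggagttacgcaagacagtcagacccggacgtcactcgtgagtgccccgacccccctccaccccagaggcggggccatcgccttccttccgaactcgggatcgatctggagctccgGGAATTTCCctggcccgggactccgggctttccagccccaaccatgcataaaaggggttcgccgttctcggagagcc
CXCL3: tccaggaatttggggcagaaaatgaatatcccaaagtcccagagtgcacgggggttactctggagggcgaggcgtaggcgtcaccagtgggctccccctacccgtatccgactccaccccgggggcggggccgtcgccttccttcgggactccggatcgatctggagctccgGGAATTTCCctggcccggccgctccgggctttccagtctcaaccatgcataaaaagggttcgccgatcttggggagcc
The motif, searched on both strands, stood once in each of them and in 0.413% of 35116 promoters of the same length. It began 78, 77 and 78 bases before the start of CXCL1, CXCL2 and CXCL3. Of 14 named genes with a called member probe, 11 had a promoter in the table, CCL2 not among them, and 2 of these held it, CXCL1 and CXCL2. These chemokine genes are close paralogues picked for their values here, and their printed bases are alike around the motif. The counts are therefore no test of the motif against the share over all promoters. A match describes these letters and was not tested as a binding site.

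Regulators of NF-kappa-B and early response genes were at smaller differences. NFKBIA, the inhibitor of NF-kappa-B, was printed on 10 spots and was above the controls by 0.40 and 0.38. TNFAIP3, which ends NF-kappa-B signalling, was above them by 0.16 and 0.67. The TNFAIP3 level was between 0.21 and 0.87 on the arrays of slide row 1 and between -1.17 and -0.81 on those of row 2. Of 33 member genes of the list of immediate early and AU-rich mRNAs none passed 2-fold, 19 were above both controls and 4 below both, where 32.8% and 33.9% of all named genes were. The list's median difference was 0.20, and 0.11 after quantile normalization. IER3 was the only one to pass 1.5-fold, with levels of 0.98 with CNOT6 shRNA, 0.38 with the empty vector and 0.28 with the non-target shRNA. FOS was above both controls by 0.30 and 0.35, FOSB by 0.24 and 0.58, and EGR1 by 0.31 and 0.34. KLF2 was above by 0.51 and 0.77, whereas SRF was below by -0.39 and -0.88. MYC differed by -0.02 and -0.22. In the interferon response list none of 26 member genes passed, 4 were above both and 7 below both, and the median was -0.10.

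Of the other genes called higher, UBD encodes a ubiquitin-like modifier that inflammatory cytokines induce. Its level was 2.29 with CNOT6 shRNA, 1.09 with the empty vector and 0.48 with the non-target shRNA, and 1.26, -0.51, -0.11 and 0.41 with PARN, CNOT6L, CNOT7 and NOC shRNA. Its 2 spots on the CNOT6 shRNA array were at 2.23 and 2.35, and the fold over the mean of both controls was 2.84.

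ACKR3, an atypical receptor that takes up the chemokine CXCL12, was at -0.25 with CNOT6 shRNA, -2.37 with the empty vector and -1.27 with the non-target shRNA. The differences of 2.12 and 1.03 were unequal, and the empty vector minus the non-target shRNA was -1.10. With NOC shRNA its level was 0.25, above that with CNOT6 shRNA.

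TFEB, the transcription factor of lysosomal and autophagy genes, was at 1.62 on 1 spot against 0.29 and 0.39. A second TFEB member probe, on 2 spots, was at 0.29 against 0.22 and 0.09, so that the 2 probes disagreed. OR2A2, an olfactory receptor gene, and TMEM95, a sperm membrane protein, were each measured on 1 spot. OR2A2 differed by 1.08 and 1.17 and TMEM95 by 1.07 and 1.10. With CNOT6L shRNA the TMEM95 level was 0.95 and with CNOT6 shRNA 0.99.

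In 3 other genes the mean passed but not every spot did. MAP6, a microtubule-stabilising protein, had the greatest difference of a named gene, 3.19 and 2.60, but its 2 spots on the CNOT6 shRNA array were at -1.84 and 2.88, and the controls at -2.68 and -2.08. The lower of the spots lay less than 2-fold above either control, so the call rests on 1 spot. AMN, which takes part in vitamin B12 uptake, had spots at -0.88 and -0.29 against -1.72 and -1.61. MOCS3, an enzyme of molybdenum cofactor and tRNA thiolation, had spots at 0.62 and 1.01 against -0.20 and -0.40, and was at 1.10, 0.83 and 1.05 with CNOT6L, CNOT7 and NOC shRNA.

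Only 3 named genes were called lower. TMEM158, a membrane protein first described as induced by Ras in senescence, was at -0.38 on 1 spot with CNOT6 shRNA, 0.70 with the empty vector and 0.88 with the non-target shRNA, a level 2.24-fold below the mean of both controls. On the other 4 arrays it was between 0.62 and 1.21, so that the CNOT6 shRNA array stood apart from the other 6. SLC6A9, a glycine transporter, was at 1.88 against 2.95 and 2.92, but only 1 of its 2 spots passed against both controls, and a second member probe differed by -0.32 and -0.82. SSBP3, a partner of LIM-domain transcription complexes, was at -3.33 on 1 spot against -1.90 and -1.38. Its level with CNOT6 shRNA lay under the limit of -2.59, so this probe was a member only through its controls. A dimmer SSBP3 probe was at -2.61 against -2.76 and -2.89, in the opposite direction, and with NOC shRNA the first probe was at -3.24.

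Just short of the call on the higher side were PPP1R14A, an inhibitor of myosin phosphatase, with differences of 0.94 and 0.95, MMRN2, an extracellular matrix protein, with 1.11 and 0.94, PTAFR, the receptor of platelet-activating factor, with 1.11 and 0.94, and YPEL4 with 0.94 and 1.01. PPP1R14A was at 2.16 with CNOT6 shRNA but at 2.29 with CNOT6L shRNA. YPEL4 was at -1.66 with CNOT6 shRNA, but at -1.43 with CNOT6L shRNA and -1.49 with NOC shRNA. For MMRN2 and PTAFR the CNOT6 shRNA array was the highest of 7. On the lower side 10 genes followed, each with the CNOT6 shRNA array the lowest of 7. Genes on both sides were chosen by their differences from both controls, so their ranks are partly fixed by that choice. IGSF8, a cell-surface immunoglobulin protein, was nearest with -0.98 and -1.33, and PDLIM7, a LIM-domain scaffold of actin filaments, had -0.97 and -1.41 on 2 spots. The other PDLIM7 member probes had mean differences of -0.02 and -0.66, and a second IGSF8 probe one of -0.66. GM2A, the activator protein of ganglioside breakdown, had -0.89 and -1.17 on 2 spots, and a second probe a mean difference of -0.87. B4GALNT1, which makes complex gangliosides, had -0.84 and -1.40. The remaining genes were FOXJ2, GNG13, SFT2D3, B3GALT6, ELAC1 and TSKU, with a smaller difference of between -0.94 and -0.84.

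Most called probes carried no gene name. Among the 31 higher, 12 probes gave 11 named genes, 1 was a further RefSeq mRNA probe, NM_022377, 9 were lincRNA probes of the array design and 9 were other transcripts without a name here, and 22 were printed on 1 spot. NM_022377 was at -1.33 on 2 spots with CNOT6 shRNA, against -2.55 and -3.05, and between -3.42 and -2.43 on the other 4 arrays. The highest called probe, for the cDNA BX649145, was at 3.24 on 1 spot with CNOT6 shRNA, -0.13 with the empty vector and -0.61 with the non-target shRNA, and lay between -0.59 and -0.17 on the other 4 arrays. Of the 31 probes, the CNOT6 shRNA array was the highest of 7 in 23, which included 11 of 13 RefSeq mRNA probes, 6 of 9 lincRNA probes and 6 of 9 others. The call already sets this array above both control arrays, so the rank is partly fixed by it. The share of all members with this rank was not taken. One such lincRNA, at chr18:54721302-54731677 in the files' hg19 coordinates, was at -0.68 against -1.96 and -2.07 and between -1.82 and -1.60 on the other 4. Another at chr9:23671778-23672397 was at 0.08 against -0.97 and -0.93, but also at 0.14 with CNOT6L shRNA and 0.03 with NOC shRNA.

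Of the 11 probes called lower, 5 were lincRNA probes and 3 were other unnamed transcripts. The brightest of these 8 was a lincRNA at chr15:95822518-95870329, with a level of 1.40 with CNOT6 shRNA, 2.99 with the empty vector and 3.21 with the non-target shRNA, and 3.17, 2.70, 2.90 and 1.94 with PARN, CNOT6L, CNOT7 and NOC shRNA. A pair of lincRNA probes from neighbouring stretches of chromosome 2 were called as well. The one at chr2:216462380-216469880 was at -4.22 against -2.16 and -1.03, and the one at chr2:216608542-216708445 at -2.40 against -0.64 and -0.49. With NOC shRNA they were at -4.17 and -2.22, within 0.2 of the level with CNOT6 shRNA. The probe for ENST00000343519 had the greatest difference, -2.18 and -4.44, but its controls were 2.26 apart and NOC shRNA was lower still, at -4.19. In 6 of the 11 probes called lower the level with CNOT6 shRNA lay under the limit of -2.59. Those probes were members only through their control levels.

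Over all members, the 1537 lincRNA probes had a median difference of 0.29 from the mean of both controls and the 13394 RefSeq mRNA probes one of 0.00. At 1.5-fold, 10.2% of lincRNA probes were higher and 0.520% lower, against 0.971% and 0.627% of mRNA probes. At 2-fold both directions were more frequent among lincRNA probes, with 0.586% higher and 0.325% lower against 0.0971% and 0.0224%. The lincRNA median was 0.22 against the empty vector and 0.35 against the non-target shRNA. Members were also split by signal into 4 groups of 4278. The lincRNA median was positive in each of these groups, with 0.33, 0.28, 0.16 and 0.26 from the dimmest to the brightest. The mRNA medians in the same order were -0.01, -0.04, -0.03 and 0.07. The 2181 members of neither class also had positive medians in each group, with 0.18, 0.09, 0.06 and 0.25, and 0.15 over all. Of them 5.23% were 1.5-fold higher and 0.459% lower, and 0.413% and 0.138% at 2-fold. A positive median was thus not particular to lincRNA probes.

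The partners of CNOT6 were then examined. None of the 11 CCR4-NOT subunits with a member probe passed 2-fold or 1.5-fold, and their median difference was -0.02, where all named genes had -0.00. CNOT1, the scaffold of the complex, was at 0.43 with CNOT6 shRNA, 0.75 with the empty vector and 0.53 with the non-target shRNA. CNOT3, a regulatory subunit, was lower by -0.38 and -0.53, and TNKS1BP1 by -0.38 and -0.56, each on 1 spot. The catalytic subunits CNOT7 and CNOT6L were above both controls by 0.22 and 0.13 and by 0.10 and 0.17, while CNOT8 was below both by -0.23 and -0.08. CNOT4 differed by -0.03 from the empty vector and 0.68 from the non-target shRNA, with the controls 0.71 apart. CNOT2, CNOT10 and CNOT11 were within 0.21 of both controls. CNOT6L, the closest paralogue of CNOT6, had a level of -1.17 with CNOT6 shRNA, against -1.28 and -1.35.

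The other deadenylases also did not pass. Of 9 listed, 8 had a member probe, the exception being NOCT, 2 were above both controls and 3 below both, with a median difference of -0.04. PARN was at 0.93 with CNOT6 shRNA, 1.06 with the empty vector and 0.87 with the non-target shRNA, between its controls. PAN3, the regulatory subunit of the PAN2 nuclease, was below both by -0.10 and -0.24, and PAN2 by -0.05 and -0.10. TOE1, ANGEL1 and PNLDC1 were within 0.15 of both controls. PDE12 and ANGEL2 lay between the controls, with differences of 0.05 and -0.29 and of 0.18 and -0.15.

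The factors that bring CCR4-NOT to mRNAs and act after it were measured in the same way. Of 24 recruiters with a member probe, none passed 1.5-fold, 6 were above both and 5 below both, with a median of -0.00. AGO1, an Argonaute protein, was above both by 0.70 and 0.38, and SAMD4B, a Smaug-type repressor, below both by -0.51 and -0.92. Among the TOB and BTG adaptors, BTG1 differed by -0.01 and 0.09, TOB1 by -0.13 and 0.11 and TOB2 by -0.07 and -0.13. None of 41 decapping and decay genes passed 1.5-fold, 14 were above both and 13 below both, and the median was 0.06. LSM1, of the ring that binds shortened tails, was above both by 0.42 and 0.51, and DCP2, the decapping enzyme, below both by -0.29 and -0.33. Of 14 poly(A)-binding proteins and partners, PABPC3 alone passed 1.5-fold lower, with differences of -0.64 and -0.59, and PABPC1 was above by 0.26 and 0.14.

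Cytosolic ribosomal protein genes lay above both controls in 79 of 82 cases and below both in 2, against 37.4% and 28.9% of all members. The difference was 0.56 in the median against the empty vector and 0.43 against the non-target shRNA. None passed 2-fold. RPS13, RPS12, RPL35A and RPL41 passed 1.5-fold. RPS13 was at 7.21 with CNOT6 shRNA, 6.24 with the empty vector, 6.51 with the non-target shRNA and between 6.30 and 6.53 on the other 4 arrays. For 72 of the 82 genes the CNOT6 shRNA array was the highest of 7. The share with this rank, over all genes or over equally bright ones, was not taken. On the PARN shRNA array, which shares the controls, the medians were 0.12 and -0.01.

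Nearly all of these genes were very bright, with 81 of 82 in the brightest of the 4 signal groups. After quantile normalization of the 3 arrays the median difference was 0.02, with 35 of 82 genes above both controls and 18 below both. Under that scaling 31.3% of all members were above both and 34.2% below both. The median shift was thus nearly absent, while genes above both controls remained more frequent than among all members. Those members cover all signal levels, and the share in the brightest group alone was not taken under that scaling. Among all mRNA probes of the brightest group 46.3% were above both controls, where the next group had 27.1%. The part of the array's brightness in the ribosomal result was not tested.

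Other lists of abundant mRNAs gave smaller differences of the same kind. Of 80 respiratory chain genes, 76 in the brightest group, 62 were above both controls and 6 below both, with a median of 0.20. Of 37 proteasome genes, 33 in that group, 26 were above and 3 below, with a median of 0.16. The shares to read these against are 46.3% and 23.3% of all mRNA probes of the brightest group. After quantile normalization 37 respiratory chain genes were above and 22 below, with a median of 0.05, and 14 proteasome genes were above and 10 below, with a median of 0.03. Of all members, not only the brightest, 31.3% were above both and 34.2% below both under that scaling. COX8C was the only one of the 80 to pass 1.5-fold, with 0.61 and 1.69. Among 39 translation initiation factors 23 were above both and 8 below both, and after quantile normalization 14 and 12, with a median of 0.00. EIF1 was above by 0.87 and 0.55 and the eIF3 subunit EIF3H by 0.64 and 0.52. The median of the 25 heat shock genes was 0.20, with HSP90AA1 above by 0.93 and 0.51, and it was 0.02 after quantile normalization.

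Genes of mitosis lay mainly below both controls, in 28 of 39 cases, with 6 above both and a median difference of -0.19, where 33.9% of all named genes were below both and 32.8% above both. None passed 1.5-fold. PLK1, the kinase that drives mitotic entry and exit, was at -0.01 with CNOT6 shRNA, 0.41 with the empty vector and 0.66 with the non-target shRNA. CDC25C, the phosphatase that activates CDK1, was at -1.25 against -0.64 and -0.70. KIF20A, printed on 10 spots, was at -0.10 against 0.48 and 0.30, and at -0.46 with NOC shRNA. BIRC5 and HMMR were above both controls, by 0.13 and 0.21 and by 0.26 and 0.21. The median was -0.22 after quantile normalization, -0.17 against each control alone, and on the PARN shRNA array -0.11 and -0.13. The CNOT6 shRNA array was the lowest of 7 for 6 of the 39 genes, and the share over all genes was not taken.

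DNA replication genes showed a smaller difference in the same direction, with 19 of 39 below both controls, 9 above both and a median of -0.10, that is 48.7% below both against 33.9% of all named genes. The medians were -0.09 against the empty vector and -0.11 against the non-target shRNA. They were similar on the PARN shRNA array, at -0.08 and -0.13. RRM2, a subunit of ribonucleotide reductase, was lowest with -0.54 and -0.92, and MCM7 of the replicative helicase was above both by 0.24 and 0.29. In the cholesterol and fatty acid list 17 of 32 were below both and 5 above both, but the median was -0.02 against the empty vector and -0.31 against the non-target shRNA, and the empty vector minus the non-target shRNA had a median of -0.32. On the PARN shRNA array the medians of that list were -0.07 and -0.35. Of 24 p53 targets 6 were above both and 10 below both, with a median of -0.03.

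Of the stress and lineage genes few passed even 1.5-fold. ATF4, the effector of the integrated stress response, was at 7.27 with CNOT6 shRNA against 6.56 and 6.62, and NUPR1, a stress-induced nuclear protein, at -0.14 against 0.54 and 0.70. The median of this list of 35 genes was -0.00. AXL, a receptor tyrosine kinase, was at -1.40 against -2.35 and -2.31. The 23 squamous and keratin genes had a median of 0.08, with 9 above both and 8 below both.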

How the data were processed

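The scanner files deposited by the authors came from Agilent Feature Extraction 10.7.3.1 and hold, per the file headers, the intensity of 62976 spots per array. The deposited series table holds log2 values of the same arrays and served as an alternative. RNA (0.2 µg) was labelled with Cy3. Control spots and outlier spots were left out, log2 of the processed signal was reduced by each array's 75th percentile and spots of a probe were averaged. A probe was above background where at least 50% of its spots were marked so. Symbols came from a RefSeq table of GRCh38.p14, used for names only, and the CNOT6 probe was named through the labels' accession with its missing zero restored. lincRNA coordinates are those of the files (hg19).

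With 1 array per group, the call for a member was a difference of 2-fold or more, of the same sign, from both controls. Named were CNOT6, its CCR4-NOT partners, other deadenylases, called list genes and the 12 genes highest and lowest by the smaller difference, taking the brightest called probe, requiring every spot to pass and skipping genes with a probe opposed by 0.5 or more. Other genes were chosen after their values were seen. The members and 31 gene lists were chosen with earlier results of these data known. A list takes each gene's brightest member probe. limma 3.58.1 in R 4.3.3 was run as an alternative (lmFit, eBayes with trend). The normexp alternative (offset 50) used the median signal, because the files used here hold no mean signal. The steps were tested on simulated data. The number of arrays limits the precision.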

Additional observations from a re-analysis of the deposited data

How the results depend on the processing

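The counts of 31 members higher and 11 lower stayed within 1.5 times of these values under quantile normalization, equal medians, normexp correction, the series table, the stricter background filter, outlier spots kept, the median of spots and the requirement that every spot pass. Quantile normalization kept 26 of the 31 and all 11, and normexp 23 and 10. The counts were 104 and 41 without the limit on signal, 401 and 102 at 1.5-fold, 2 and 2 at 4-fold, 2 and 3312 without scaling, and 0 and 0 in limma with the controls as 1 arm (783 members at an unadjusted p under 0.05; 1 residual degree of freedom, the single CNOT6 shRNA array taken to have the controls' variance). Leaving out a control array gave 162 to 438 higher and 58 to 67 lower, the larger counts without the empty vector. The CNOT6 mRNA difference from the mean of both controls was -0.16 and was negative under all 9 alternatives run, with -1.16 without scaling and -0.21 to -0.11 with 1 control left out. Without scaling list medians were lower throughout, with -0.51 for ribosomal proteins, -1.20 for mitosis genes and -0.01 for cytokines and chemokines. No paired analysis was possible because the groups share only replicate number 1. The CNOT6 shRNA array was the dimmest, and 17 of the 31 higher calls lay in the dimmest of the 4 signal groups of members.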

Other observations

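Among the 17113 probes above background but below the signal limit for members, 73 were at least 2-fold higher than both controls, 0.427%, and 30 lower, 0.175%. These values are less certain, since the median of these dim probes was 0.02 above the empty vector and 0.43 above the non-target array. SELE, the endothelial adhesion molecule that inflammatory cytokines induce, was higher on both of its probes, with differences of 1.21 and 1.74 on the brighter and 1.04 and 2.35 on the dimmer, and was at -1.65 with CNOT6 shRNA against -2.86 and -3.39. GPR183, a receptor for oxysterols on immune cells, had differences of 1.26 and 1.47, and SAMD9, an antiviral factor, 1.53 and 1.69, each on 1 spot. VEGFC, a lymphatic growth factor, had the greatest mean differences, 4.24 and 3.81. Its 2 spots on the CNOT6 shRNA array were at -4.40 and 3.99, however, against controls of -4.44 and -4.02, so that the difference rests on 1 spot.

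Among the dim probes called lower, CDK2, the kinase of S-phase entry, was printed on 10 spots and every spot used passed. Its level was -3.80 with CNOT6 shRNA, -2.58 with the empty vector and -2.43 with the non-target shRNA, and -2.62, -2.49, -2.28 and -2.64 with PARN, CNOT6L, CNOT7 and NOC shRNA. The CNOT6 shRNA array was therefore lower than the other 6. ABCC3, an organic anion transporter, was lower by -1.48 and -1.98 on 2 spots, but at a level of -7.10.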
